A study of Mus musculus with 3 samples.

Results

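The 39 genes of glycolysis and of the response to low oxygen described here were chosen by symbol, from a list that covers the enzymes from hexokinase to lactate dehydrogenase, glucose and lactate transporters, pyruvate dehydrogenase kinases, the alpha subunits of the hypoxia-inducible factors (HIF) and HIF targets. All 39 were found among the 39179 genes of the deposited table, all are protein-coding, and all 39 were measured (mean of at least 10 in the 3 libraries). RNA came from mouse embryonic stem cells carrying Contactin2:eGFP, which reports Cntn2, a gene active in cardiac Purkinje cells. Lentivirus had added aMHC:mCherry, in which the alpha myosin heavy chain (Myh6) promoter drives mCherry. All cells were given sodium nitroprusside, a nitric oxide donor, on day 4 of differentiation and were sorted after 25 days. NEG cells lacked both reporters, MHC cells were mCherry-positive and GFP cells were eGFP-positive with dim mCherry. Cells without nitroprusside were not analysed here, and the labels do not say whether the line is 1 clone.

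Each population had 1 library, so differences lack a replicate check and carry no p-value. Levels are read counts per gene after division by the library's size factor. A fold is a ratio of these values, and its exact 95% interval covers counting error only. A gene passed the rule of size when it differed at least 2-fold in log2(value + 1), a scale that understates differences of low genes, and its higher value was at least 20. The libraries held 47289405 to 52826956 reads, and the fewest reads of any of the 39 genes in a library were 81. In a bulk library, fewer cells of a type and less RNA per cell cannot be told apart.

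The sorted libraries also differed in cell type markers. The summed value of 10 cardiomyocyte markers was 21485 in NEG, 361301 in MHC and 27270.1 in GFP. Cardiomyocyte markers were thus highest in MHC, where the Myh6 reporter was sorted, and Myh6 itself was at 3843, 186924 and 4694. Cntn2 was at 204, 228 and 10045, highest in GFP. The sum of 10 epicardial and mesothelial markers was 6119, 6189 and 164729, and that of 8 osteoblast markers 702495, 350649 and 3453. Fibroblast and matrix markers (8 genes) summed to 5653995, 5700704 and 1799636 and smooth muscle markers (5 genes) to 59039.8, 61784 and 44284. In both lists single genes ran against the sum. Mylk made up 40839 of the smooth muscle sum in GFP, against 5587 in NEG and 8156 in MHC, while 4 of 5 markers of that list were lower in GFP than in MHC. Of the 8 fibroblast and matrix markers 5 were lower in GFP than in MHC, whereas Dcn (62072, 67849 and 144191) and Pdgfra (9525, 11080.2 and 35383) were higher. Most of these lists were highest outside GFP, the epicardial and mesothelial one in it. Endothelial markers (6 genes) summed to 2258, 3281 and 1880.2, with members on both sides: Flt1 was at 1174, 2370.2 and 40.2, Tek at 277, 225 and 504. Haematopoietic markers (6 genes) summed to 1032, 1245 and 2459.7, with 3 of them measured. Of these 3, Cd68 and Csf1r passed the rule as higher in GFP than in MHC, while Itgam was at 427, 400.1 and 262. Cell cycle genes (8) summed to 3548, 4663 and 6168. Against MHC 4 of them passed as higher in GFP and 0 as lower, and Pcna was at 2014, 3021 and 1937. No marker was at 0 reads except the globin gene Hbb-bt in NEG and MHC. These lists moved with the sorted populations, and their part in the results below was not tested.

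Glycolysis splits glucose into pyruvate, which lactate dehydrogenase can turn into lactate or the pyruvate dehydrogenase complex can pass on to mitochondria. When oxygen is low, HIF alpha subunits escape hydroxylation by EGLN enzymes, pair with ARNT and activate genes that hold ACGTG or GCGTG core sites, among them many glycolytic genes. The early heart relies largely on glycolysis, and the adult heart mostly on fatty acid oxidation. Because HIF alpha is controlled mainly as a protein, its mRNA does not measure its activity.

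Most of these genes were lowest in the Cntn2:eGFP-positive cells. GFP had the lowest of the 3 values for 28 genes, NEG for 7 and MHC for 4, while MHC had the highest for 19, NEG for 13 and GFP for 7. Against MHC, 28 of 39 genes were at least 2-fold lower in GFP, where 16.4% of all genes reaching 20 passed the same rule, and 2 were higher, against 15.6% of all genes. The median log2 ratio was −1.62 for the 39 genes and −0.001 over all 22235 measured genes. Against NEG, 24 genes were lower (15% of all genes) and 5 were higher (14.1%), with a median of −1.68 beside 0.008 over all measured genes. MHC and NEG differed in 4 of the genes, all higher in MHC (5.35% of all genes), and in 0 in the other direction (5.21%), with a median of 0.18 beside −0.013. The comparisons with MHC and with NEG share the GFP library. Since many of the 39 genes are abundant, the rule was also read among genes whose higher value was at least 1000. There 26 of 37 were lower in GFP than in MHC, against 11.6% of all such genes, and 2 were higher, against 13.7%. There 20 of 33 were lower in GFP than in NEG, against 10% of all such genes, and 5 higher, against 12.8%. Between MHC and NEG 4 of 37 were higher in MHC (3.05% of all such genes) and 0 lower (2.64%). At 4-fold or more, 16 of the 39 were lower in GFP than in MHC (7.55% of all genes) and 1 higher (5.89%), and 17 were lower than in NEG (7.08%) and 0 higher (5.41%). In MHC 3 were 4-fold or more higher than in NEG (1.46%) and 0 lower (1.08%). The lower side thus exceeded its share over all genes at each of these settings in GFP.

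**Figure D1:**
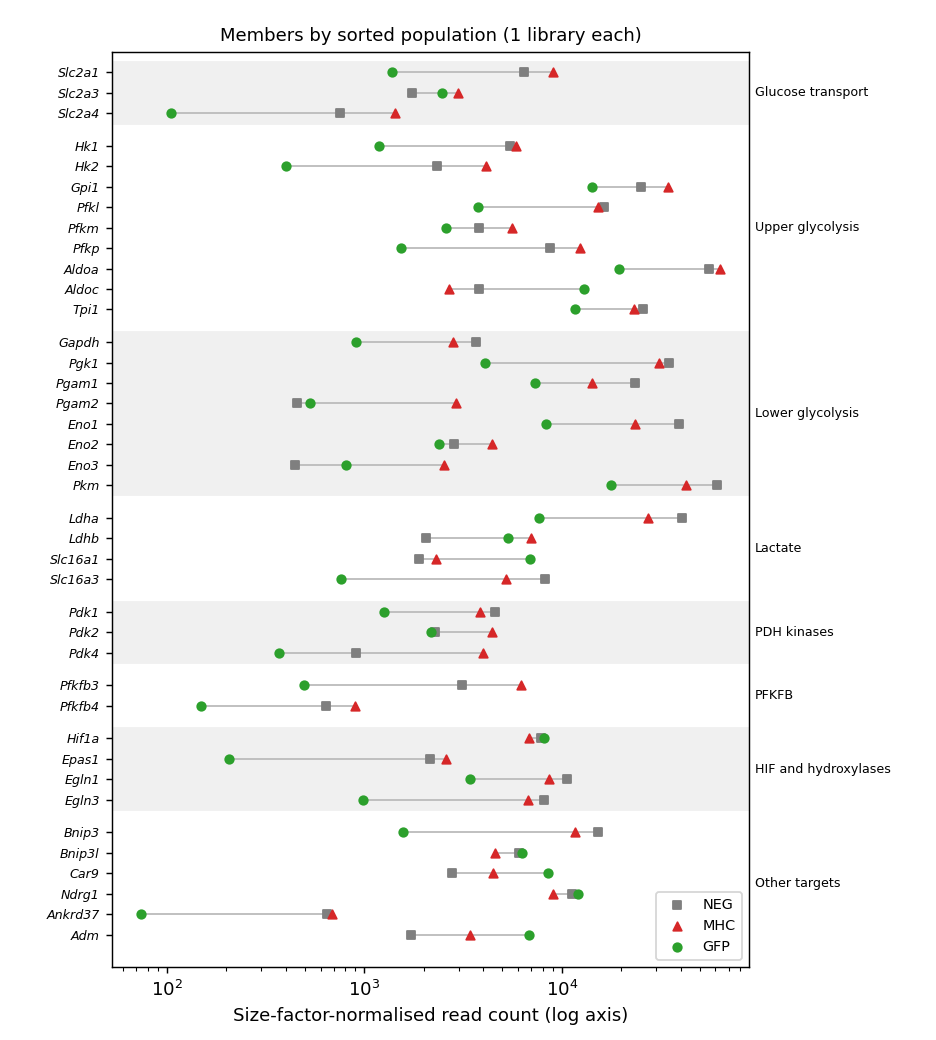
Size-factor-normalised read counts (log axis) of the 39 genes in NEG (squares), MHC (triangles) and GFP (circles), 1 library each, grouped by role; the grey line joins the lowest and highest library. GFP is the lowest library for 28 genes and the highest for 7.

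**Figure D2:**
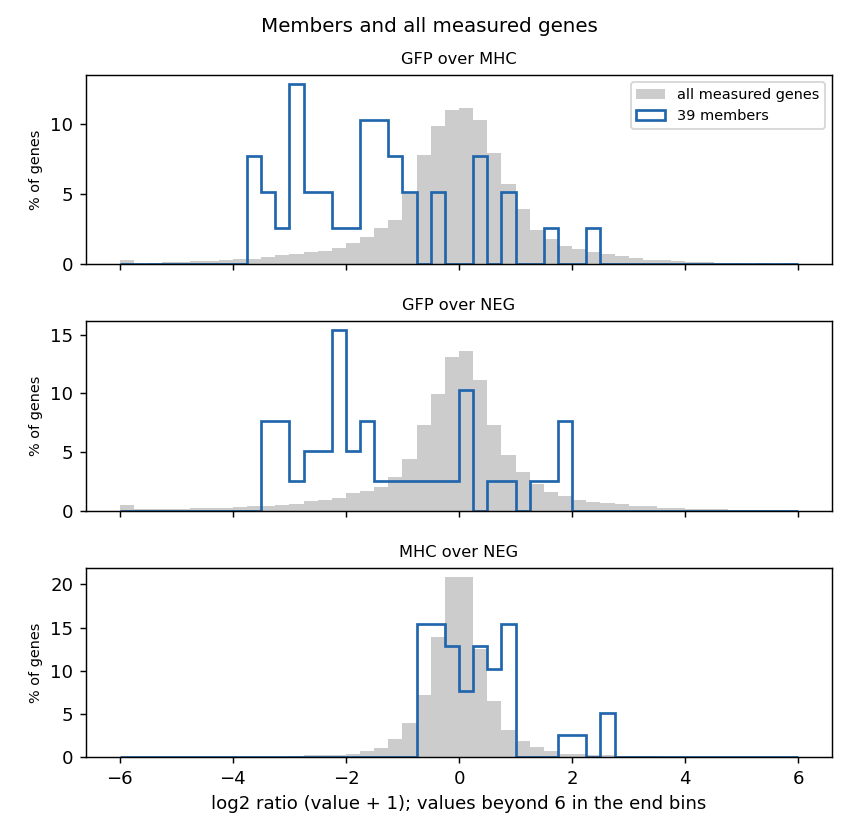
Distribution of log2 ratios for the 39 genes (blue outline) and for all 22235 measured genes (grey), as percent of genes in each bin. The 39 genes have medians of −1.62, −1.68 and 0.18 in GFP over MHC, GFP over NEG and MHC over NEG.

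By summed reads, the 19 glycolytic enzymes and lactate dehydrogenases took 0.666% of the NEG library (95% Clopper-Pearson interval 0.663 to 0.668), 0.608% of MHC (0.606 to 0.610) and 0.258% of GFP (0.257 to 0.260). NEG and MHC were close and GFP was far below both. Copies of some of these enzymes held further reads, in NEG 93096 for Eno1 and 30564 for Gapdh, which itself had 3256. How reads fitting several places were counted is not given, so the percentages are uncertain beyond their intervals. The 10 genes of HIF alpha subunits, prolyl hydroxylases and other targets took 0.124%, 0.11% and 0.101% (intervals 0.123 to 0.125, 0.109 to 0.111 and 0.10 to 0.102), so their sum differed much less between the libraries. The sum hides single genes. Of the 10, 5 passed the rule as lower in GFP than in MHC (16.4% of all genes) and 0 as higher (15.6%). Against NEG, 5 were lower (15%) and 2 higher (14.1%).

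The upstream windows of these genes were searched for the HIF core, as ACGTG and as GCGTG on both strands, in the 250 bases before the start site. RefSeq windows (GRCm38.p6, the build of mm10) matched 34 of the 39 genes, and the window nearest the deposited gene's start was taken for the 10 with several. ACGTG was found in 16 of 34 windows (47.1%) against 16.6% of all 32851 windows, and either core in 27 of 34 (79.4%) against 38.6%. The members gave 1 window each, whereas the shares over all windows count every window of a gene with several. Overlapping matches each count, and the palindrome CACGTG matches on both strands. Among the 26 matched genes lower in GFP than in MHC, 12 held ACGTG and 20 either core. Of the 2 higher genes, 1 held ACGTG and 2 either core, and of the 6 that passed in neither direction, 3 and 5. The median GC content was 59.0% in the members' windows and 52.4% in all windows, and its part in these shares was not tested. A match describes the letters and is not a binding site.

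Windows are shown for the 4 matched genes with the lowest GFP over MHC ratio (Pfkfb3, Pdk4, Hk2 and Ankrd37) and the 2 highest (Aldoc and Slc16a1). The hypoxia targets Bnip3 and Car9 were added after their values were seen, since they lie on opposite sides in GFP. The windows lie in mm10 at chr2:11502091-11502340 (minus strand), chr6:5496279-5496528 (minus strand), chr6:82774455-82774704 (minus strand), chr8:45999851-46000100 (minus strand), chr11:78322823-78323072 (plus strand), chr3:104638414-104638663 (plus strand), chr7:138909507-138909756 (minus strand) and chr4:43506776-43507025 (plus strand), in that order. Each is written 5′ to 3′ on the gene's strand, ending at the base before the start site, with both cores in capitals.
Pfkfb3: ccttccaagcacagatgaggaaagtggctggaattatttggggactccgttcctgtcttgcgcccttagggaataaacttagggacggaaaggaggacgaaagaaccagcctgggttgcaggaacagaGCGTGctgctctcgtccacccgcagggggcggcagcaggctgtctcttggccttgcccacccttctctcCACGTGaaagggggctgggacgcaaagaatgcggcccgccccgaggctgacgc
Pdk4: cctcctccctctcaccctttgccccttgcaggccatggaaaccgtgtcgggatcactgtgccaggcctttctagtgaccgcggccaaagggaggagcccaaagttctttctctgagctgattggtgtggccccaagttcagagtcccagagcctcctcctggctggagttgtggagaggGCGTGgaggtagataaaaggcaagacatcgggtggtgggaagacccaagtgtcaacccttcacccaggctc
Hk2: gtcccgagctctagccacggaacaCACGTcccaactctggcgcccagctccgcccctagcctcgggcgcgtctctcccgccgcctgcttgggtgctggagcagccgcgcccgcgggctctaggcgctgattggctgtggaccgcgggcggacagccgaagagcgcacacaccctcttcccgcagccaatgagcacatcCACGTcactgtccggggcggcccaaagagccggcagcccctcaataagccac
Ankrd37: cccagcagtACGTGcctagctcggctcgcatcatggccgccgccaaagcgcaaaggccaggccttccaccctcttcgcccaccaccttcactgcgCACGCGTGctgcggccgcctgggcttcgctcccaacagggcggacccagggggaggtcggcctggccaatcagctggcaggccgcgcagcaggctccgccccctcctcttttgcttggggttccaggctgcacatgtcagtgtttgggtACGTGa
Aldoc: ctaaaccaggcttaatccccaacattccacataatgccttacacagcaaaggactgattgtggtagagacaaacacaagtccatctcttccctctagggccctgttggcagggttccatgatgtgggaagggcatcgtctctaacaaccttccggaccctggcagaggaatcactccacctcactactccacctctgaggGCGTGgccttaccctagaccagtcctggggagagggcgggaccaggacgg
Slc16a1: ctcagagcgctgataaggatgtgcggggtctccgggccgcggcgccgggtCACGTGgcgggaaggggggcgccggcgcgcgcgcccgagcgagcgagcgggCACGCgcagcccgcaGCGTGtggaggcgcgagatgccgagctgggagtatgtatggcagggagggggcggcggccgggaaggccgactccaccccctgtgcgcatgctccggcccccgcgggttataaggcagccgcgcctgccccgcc
Bnip3: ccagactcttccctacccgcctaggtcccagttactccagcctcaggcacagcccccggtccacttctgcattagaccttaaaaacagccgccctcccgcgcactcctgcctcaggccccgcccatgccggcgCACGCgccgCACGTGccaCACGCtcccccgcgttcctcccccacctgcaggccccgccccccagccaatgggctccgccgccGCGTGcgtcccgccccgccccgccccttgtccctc
Car9: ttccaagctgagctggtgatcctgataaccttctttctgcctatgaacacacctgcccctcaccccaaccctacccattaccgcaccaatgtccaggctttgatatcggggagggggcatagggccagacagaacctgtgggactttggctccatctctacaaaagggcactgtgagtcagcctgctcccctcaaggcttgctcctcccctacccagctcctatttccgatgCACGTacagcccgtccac
Genes on both sides of the comparison carried the cores. CACGTG stood in the windows of Pfkfb3 and Bnip3, lower in GFP, and of Slc16a1, higher in GFP.

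Glucose uptake genes were lower in GFP for 2 of 3 members. Slc2a1 (ENSMUSG00000028645, chr4:119108711-119137330, mm10), the gene of the widespread transporter GLUT1, had a value of 6403 in NEG, 8991 in MHC and 1372 in GFP. MHC exceeded GFP 6.55-fold (95% interval 6.20 to 6.93), and NEG exceeded it 4.67-fold (4.41 to 4.94). Slc2a4 (ENSMUSG00000018566, chr11:69942539-69948188), the insulin-regulated GLUT4 of muscle and fat, had a value of 749 in NEG, 1425 in MHC and 105 in GFP. This was the lowest GFP over MHC ratio of the 39 genes, 13.6-fold (11.2 to 16.5) lower in GFP. Slc2a3, the high-affinity GLUT3 known from neurons and early embryos, was at 1737, 2979 and 2477, so its 3 values lay within 2-fold. Slc2a1 overlaps an antisense gene, Gm12868 (3311 reads in NEG, 5203 in MHC and 889 in GFP). Whether the counting used strand is unstated, so the values of genes with an overlapping partner are uncertain.

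Hexokinases and phosphofructokinases, which commit glucose to the pathway, were all lower in GFP than in MHC. Hk2, the insulin-responsive hexokinase of muscle and heart (ENSMUSG00000000628, chr6:82725025-82774454), had a value of 2339 in NEG, 4156 in MHC and 402 in GFP, and was 10.3-fold (9.36 to 11.4) lower in GFP than in MHC. The general form Hk1 was at 5463, 5831 and 1184. NEG and MHC were thus near each other for Hk1, whereas Hk2 was 1.78-fold (1.68 to 1.87) higher in MHC. Pfkp, the platelet-type phosphofructokinase, was at 8711, 12304 and 1537, and 8.0-fold (7.60 to 8.43) lower in GFP than in MHC. The liver-type Pfkl was at 16396, 15349 and 3769.6, and the muscle-type Pfkm at 3809, 5618 and 2597. Pfkm had the smallest difference of the family, 2.16-fold (2.07 to 2.26) against MHC, and against NEG it did not pass the rule (1.47-fold, 1.40 to 1.54). Pfkp overlaps Pitrm1, which had 1893 to 1984 reads in the libraries.

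Both listed regulators of phosphofructokinase were lower in GFP than in NEG and MHC, Pfkfb3 more so than Pfkfb4. PFKFB enzymes make and break fructose-2,6-bisphosphate, the strongest activator of phosphofructokinase. Pfkfb3 (ENSMUSG00000026773, chr2:11471430-11502101), the form with the highest kinase activity, had a value of 3135 in NEG, 6179.7 in MHC and 493 in GFP, 12.5-fold (11.5 to 13.7) lower in GFP than in MHC. Its relative Pfkfb4 was at 642, 891 and 149, and 5.98-fold (5.06 to 7.12) lower in GFP than in MHC. Of the related genes outside the list, Pfkfb2, picked after seeing its values, was at 1012, 1131 and 1154.

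The aldolase genes went in opposite directions. Aldoa (ENSMUSG00000030695, chr7:126795234-126800751), the muscle-type aldolase, had a value of 55881 in NEG, 63272 in MHC and 19577 in GFP. It was 3.23-fold (3.18 to 3.28) lower in GFP than in MHC. Aldoc (ENSMUSG00000017390, chr11:78322968-78327781), the aldolase best known from brain, had a value of 3827 in NEG, 2673 in MHC and 13012 in GFP. GFP exceeded MHC 4.87-fold (4.67 to 5.08) and NEG 3.40-fold (3.27 to 3.53), the highest GFP over MHC ratio of the 39 genes. Compared per kilobase of annotated exon, Aldoc made up 5.76% of the level of Aldoa and Aldoc in NEG, 3.63% in MHC and 37.2% in GFP.

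Gpi1, Tpi1 and Gapdh were lower in GFP than in MHC as well. Gpi1, which converts glucose-6-phosphate to fructose-6-phosphate, was at 25084 in NEG, 34454 in MHC and 14248 in GFP, and 2.42-fold (2.37 to 2.46) lower in GFP than in MHC. Against NEG it did not pass the rule (1.76-fold, 1.72 to 1.80). Tpi1, which interconverts the triose phosphates, was at 25668, 23348 and 11627, just inside the rule against MHC (2.01-fold, 1.97 to 2.05). Gapdh, which oxidises glyceraldehyde-3-phosphate and is often used as a reference gene, was at 3678, 2805 and 911, and 3.08-fold (2.86 to 3.31) lower in GFP than in MHC. Of its 50-base windows, 24.7% also occur in 115 other genes counted as copies, 109 of them pseudogenes, so its level is uncertain.

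Pgk1 had the largest difference among the later enzymes. Pgk1 (ENSMUSG00000062070, chrX:106187100-106203699), which makes the first ATP of the pathway, had a value of 34854 in NEG, 31123 in MHC and 4062 in GFP, 8.58-fold (8.31 to 8.86) lower in GFP than in NEG. Its NEG and MHC values lay close together. Its near-identical copies share 53.9% of its windows. The 2 in the table had 77703 reads in NEG, 77405 in MHC and 11058 in GFP, 8.68-fold lower in GFP than in NEG. The same reads may be counted at the gene and its copies, so this ratio is no separate check. Pkm, the pyruvate kinase gene, was at 61150.0, 42692 and 17839.8, and 2.39-fold (2.35 to 2.43) lower in GFP than in MHC. Copies share 13.3% of its windows.

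Among mutases and enolases the muscle forms stood apart in MHC. Pgam1, the general phosphoglycerate mutase, was at 23378 in NEG, 14177 in MHC and 7304 in GFP, with GFP 1.94-fold (1.89 to 2.0) below MHC and so just outside the rule. Pgam2 (ENSMUSG00000020475, chr11:5801640-5803733), the muscle mutase, had a value of 458 in NEG, 2908 in MHC and 527 in GFP. MHC was alone in its high level, 6.36-fold (5.73 to 7.07) above NEG and 5.52-fold (5.05 to 6.05) above GFP. Eno3 (ENSMUSG00000060600, chr11:70657202-70662513), the muscle enolase, had a value of 446 in NEG, 2531 in MHC and 807 in GFP, 5.67-fold (5.10 to 6.32) higher in MHC than in NEG. Eno1, the general enolase, ran the other way between these libraries, at 39138, 23373 and 8346. The neuronal enolase Eno2 was at 2838, 4411 and 2376, with no pair 2-fold apart. Copies share 36.2% of the windows of Pgam1 and 25.9% of those of Eno1.

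**Figure D3:**
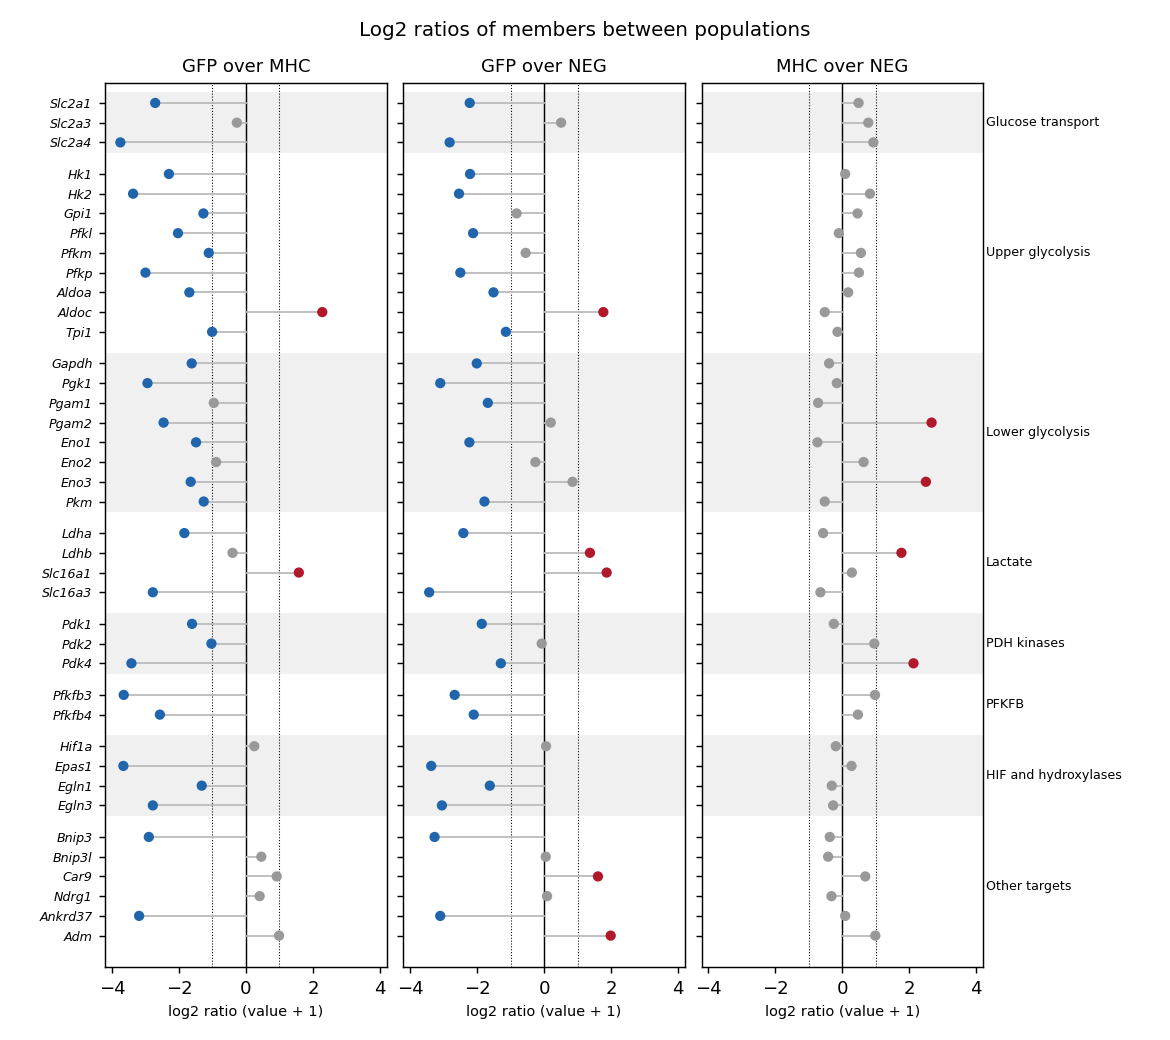
Log2 ratios (value + 1) of the 39 genes for GFP over MHC, GFP over NEG and MHC over NEG, grouped by role; blue and red points passed the rule of size as lower and higher, grey points did not, and dotted lines mark 2-fold. In MHC over NEG only Pgam2, Eno3, Ldhb and Pdk4 pass, all higher in MHC.

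The lactate genes split by isoform and by transporter. Ldha (ENSMUSG00000063229, chr7:46841475-46855627), whose subunit favours making lactate, had a value of 40469.6 in NEG, 27256 in MHC and 7629.7 in GFP, 5.30-fold (5.18 to 5.43) lower in GFP than in NEG. Ldhb (ENSMUSG00000030246, chr6:142490249-142507957), the heart-type subunit that favours using lactate, had a value of 2054 in NEG, 7015 in MHC and 5313 in GFP. NEG was the low library for Ldhb, with GFP 2.59-fold (2.45 to 2.73) and MHC 3.42-fold (3.24 to 3.6) above it. GFP and MHC lay within 2-fold of each other (1.32-fold, 1.27 to 1.37, lower in GFP). Per kilobase of exon, Ldhb was 9.66% of the level of Ldha and Ldhb in NEG, 35.2% in MHC and 59.5% in GFP. A copy shares 21% of the windows of Ldhb.

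The monocarboxylate transporters crossed over. Slc16a3 (ENSMUSG00000025161, chr11:120948480-120960868), encoding MCT4, the exporter of glycolytic cells, had a value of 8209 in NEG, 5218 in MHC and 761 in GFP. It was 10.8-fold (10 to 11.6) lower in GFP than in NEG, the lowest GFP over NEG ratio of the 39 genes. Slc16a1 (ENSMUSG00000032902, chr3:104638668-104658462), encoding MCT1, a high-affinity carrier that moves lactate in either direction, had a value of 1883 in NEG, 2298 in MHC and 6875 in GFP. It was 2.99-fold (2.85 to 3.14) higher in GFP than in MHC and 3.65-fold (3.46 to 3.85) higher than in NEG. Per kilobase of exon, Slc16a1 was 21.6% of the pair's level in NEG, 34.6% in MHC and 91.6% in GFP. Bsg (basigin), the chaperone of both carriers, picked after seeing its values, was at 55155, 75208 and 19981.

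**Figure D4:**
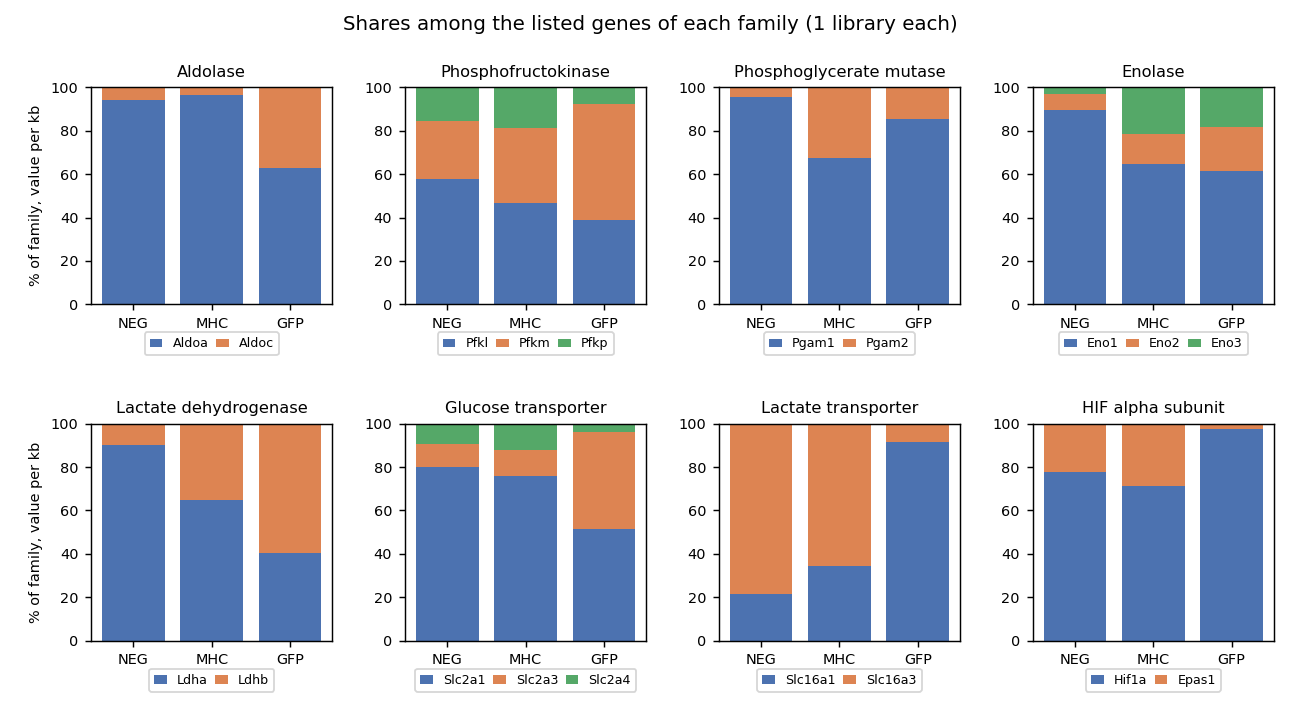
Share of each gene in the summed level of the listed members of its family (percent, values per kilobase of exon; Hif3a and other unlisted relatives are left out) in NEG, MHC and GFP, 1 library each. Aldoc, Ldhb and Slc16a1 reach 37.2%, 59.5% and 91.6% of the listed genes in GFP, and Epas1 makes up 2.59% of Hif1a and Epas1 together there.

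Exon lengths are the union of all annotated exons, so the shares depend on the annotation. Where a gene has copies, its share also depends on how reads fitting several places were counted. In NEG the copies of Eno1 held 93096 reads and those of Pgam1 24759, whereas Eno3 and Pgam2 had 0 copies. Among phosphofructokinases, Pfkm was 26.9% of the level in NEG, 34.3% in MHC and 53.4% in GFP. Among the 3 listed glucose transporters, Slc2a3 was 10.5%, 12.1% and 44.8%. Pgam2 held 4.41% of the level of Pgam1 and Pgam2 in NEG, 32.6% in MHC and 14.5% in GFP, and Eno3 3.15%, 21.6% and 18.4% of the enolase level.

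Pyruvate dehydrogenase kinases inhibit the pyruvate dehydrogenase complex in mitochondria and so limit the conversion of pyruvate to acetyl-CoA. All 3 listed kinase genes, Pdk1, Pdk2 and Pdk4, were lower in GFP than in MHC. The remaining kinase gene, Pdk3, picked after seeing its values, was at 1368 in NEG, 1383 in MHC and 1315 in GFP, so its 3 values lay close together. Pdk4 (ENSMUSG00000019577, chr6:5483351-5496309), induced in muscle and heart when fatty acids are burned, had a value of 909 in NEG, 3988 in MHC and 371 in GFP. It was highest in MHC, 10.7-fold (9.70 to 11.9) above GFP and 4.39-fold (4.06 to 4.74) above NEG. Pdk1, a HIF target, had a different order, at 4589, 3849 and 1260.5, with NEG and MHC close and GFP 3.05-fold (2.87 to 3.25) below MHC. Pdk2 was at 2286, 4445 and 2173, with GFP 2.05-fold (1.95 to 2.15) below MHC, while NEG over GFP was 1.05-fold (0.991 to 1.12). Pdk2 overlaps the antisense gene Gm11513, which had 1572, 1677 and 255 reads.

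The HIF alpha subunits parted. Hif1a (ENSMUSG00000021109, chr12:73901375-73947530), the alpha subunit most tied to glycolytic genes, had a value of 7807 in NEG, 6850.3 in MHC and 8144 in GFP, within 2-fold in every pair. Epas1 (ENSMUSG00000024140, chr17:86753907-86833410), encoding HIF-2 alpha, had a value of 2143 in NEG, 2605 in MHC and 206 in GFP. GFP was the low library, 12.7-fold (11 to 14.6) below MHC and 10.4-fold (9.07 to 12) below NEG. Per kilobase of exon, Epas1 was 22.5% of the summed level of Hif1a and Epas1 in NEG, 28.6% in MHC and 2.59% in GFP. Hif3a, the gene of a further alpha subunit, picked after seeing its values, was at 1502, 2163 and 566, with GFP 3.82-fold (3.49 to 4.19) below MHC. A processed transcript, Gm15283, overlaps Hif1a with 6811, 6697 and 8753 reads.

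Prolyl hydroxylases mark HIF alpha for destruction. The listed genes Egln1 and Egln3, themselves HIF targets, were lower in GFP than in NEG and MHC. Egln3 (ENSMUSG00000035105, chr12:54178981-54203860) had a value of 8166 in NEG, 6764 in MHC and 984 in GFP, with GFP 6.87-fold (6.44 to 7.33) below MHC and 8.30-fold (7.78 to 8.85) below NEG. Egln1 was at 10628, 8589 and 3445, with a smaller difference (2.49-fold, 2.40 to 2.59, lower than in MHC). Egln2, a prolyl hydroxylase gene outside the list, was not lower in GFP, at 2062 in NEG, 1755 in MHC and 2826 in GFP. The HIF hydroxylase gene Hif1an was at 1867, 1828 and 2004. Both were chosen after their values were seen. These related genes thus lay within 2-fold between the libraries.

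Of the 6 remaining hypoxia targets, 2 passed the rule as lower in GFP than in MHC (16.4% of all genes) and 0 as higher (15.6%). Against NEG 2 passed as lower (15%) and 2 as higher (14.1%). Bnip3 (ENSMUSG00000078566, chr7:138890836-138909519), a mitophagy receptor, had a value of 15190.3 in NEG, 11718 in MHC and 1570.4 in GFP. It was 7.46-fold (7.09 to 7.85) lower in GFP than in MHC, while its paralogue Bnip3l was at 6107, 4574 and 6309. Ankrd37 was at 643, 683 and 74.0, and 9.22-fold (7.31 to 11.8) lower in GFP than in MHC. Copies share 36.5% of the windows of Bnip3 and 20.8% of those of Bnip3l, and Ankrd37 overlaps Ufsp2 and Lrp2bp.

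Car9 and Adm were highest in GFP. Car9 (ENSMUSG00000028463, chr4:43506966-43513729), a cell-surface carbonic anhydrase widely used as a marker of hypoxia, had a value of 2776 in NEG, 4485 in MHC and 8503 in GFP. It was 3.06-fold (2.93 to 3.20) higher in GFP than in NEG and 1.90-fold (1.83 to 1.97) higher than in MHC. Adm (ENSMUSG00000030790, chr7:110627669-110629819), the gene of the vasodilator peptide adrenomedullin, had a value of 1716 in NEG, 3419.6 in MHC and 6802 in GFP, 3.96-fold (3.75 to 4.19) higher in GFP than in NEG. Its 1.99-fold (1.91 to 2.07) difference from MHC lay just outside the rule. Ndrg1, a stress-response gene, was at 11301, 9055 and 12054, and so within 2-fold. Antisense genes overlap Car9 (Gm12454, 767, 1383 and 2818 reads) and Ndrg1 (Gm17035, 5785, 5092 and 7500 reads).

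Other genes of the hypoxia response were also mostly lower in GFP. Of 40 such genes, all measured, 24 passed the rule as lower and 4 as higher in GFP than in MHC (median log2 ratio −1.33). The shares over all genes were 16.4% and 15.6%. Against NEG 21 were lower and 4 higher (−1.13), beside 15% and 14.1% of all genes. Car12, a carbonic anhydrase gene related to Car9, had a value of 11636 in NEG, 9123 in MHC and 85.0 in GFP, 107-fold (87.5 to 133) lower in GFP than in MHC. Tmem45a was at 3512, 4094 and 82.3. Vegfa, the vascular growth factor gene, picked after seeing its values, was at 13036, 20279 and 1738. Stc1 was the highest of the list in GFP, at 469, 190.4 and 5198, 27.3-fold (23.6 to 31.7) higher than in MHC. Its paralogue Stc2, chosen after its values were seen, had the opposite order, at 6425, 4388 and 102. Arnt2, an ARNT relative, was at 417, 422 and 4927, 11.7-fold (10.6 to 12.9) higher in GFP than in MHC.

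Other glucose metabolism genes passed the rule as lower in GFP at a share near that of all genes. Of 43 measured among 51 found, 8 passed as lower and 1 as higher in GFP than in MHC (median −0.42). The shares over all genes were 16.4% and 15.6%. Against NEG 5 were lower and 2 higher (median −0.08), beside 15% and 14.1%. Pentose phosphate genes passed in 0 of 7 in any pair. Of 7 genes of pyruvate entry into mitochondria, 1 passed as lower in GFP than in MHC. Their log2 ratios ran from −1.09 to −0.30, with a median of −0.69. Of 10 glycogen genes, 4 passed as lower in GFP than in MHC, the branching enzyme gene Gbe1 included. Gbe1 was at 2683, 2446 and 341 (7.17-fold, 6.43 to 8.02). The glucose transporter gene Slc2a10 was at 1696, 1866 and 402.

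Respiratory chain and fatty acid oxidation genes were compared with the same rule. Of 52, 13 were lower and 0 higher in GFP than in MHC (median −0.58), beside 16.4% and 15.6% of all genes. Against NEG 5 were lower and 3 higher in GFP (median 0.06), beside 15% and 14.1%. In MHC 10 were higher and 0 lower than in NEG (median 0.62), beside 5.35% and 5.21%. The lowest in GFP against MHC were the muscle genes Cox6a2, at 433, 5389.7 and 156 in NEG, MHC and GFP, and Cpt1b, at 334, 2308 and 156. Both were highest in MHC, and both overlap other genes, Itgad and Chkb. Against NEG, the median of these 52 genes was thus near 0, while that of the 39 glycolysis and hypoxia genes was −1.68. No difference between lists was tested.

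**Figure D5:**
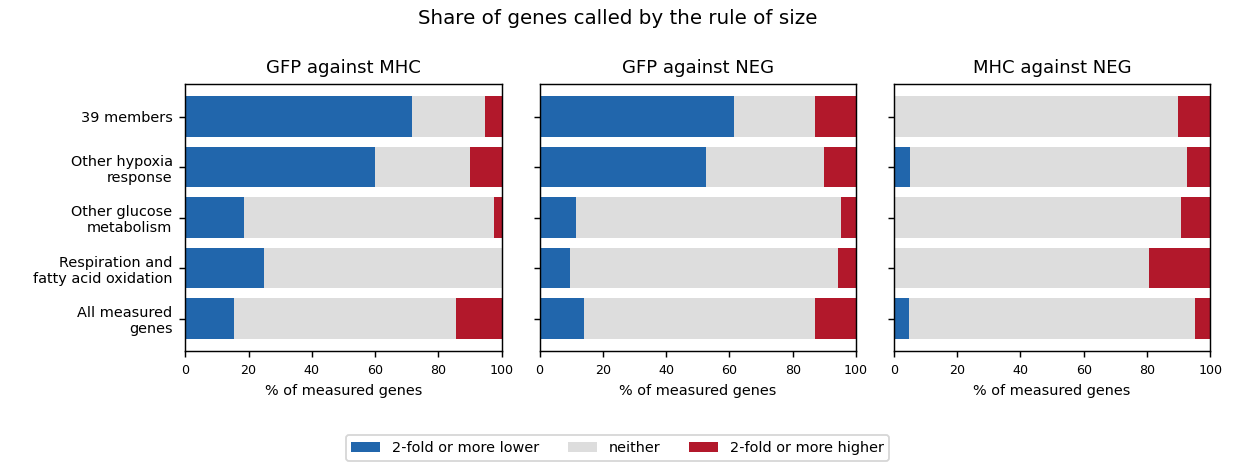
Percent of measured genes in each list that passed the rule of size as lower (blue) or higher (red) in the first-named population, with all measured genes for comparison. The 39 genes and the other hypoxia response genes have 28 of 39 and 24 of 40 lower in GFP than in MHC.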

How the data were processed

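The authors deposited 1 table of signal values for 3 libraries, 1 per population: gene read counts divided by 1 size factor per library. Per the labels' protocols, RNA of sorted cells was sequenced as single reads of 50 bases. Per the submitters' processing notes, the build was mm10 and the tools were DESeq2 1.2.10, bedtools 2.17.0, STAR 2.3.0e and FastQC 0.11.2, with no role given. Values were whole multiples of 1 step (0.914 in GFP, 1.01 in MHC, 1.13 in NEG), so whole reads were recovered for 100% of values within 0.01 of a read: 52109065, 52826956 and 47289405. With 1 library per population no count model could be fitted, and no genes are called by one.

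Ratios used log2(value + 1), and intervals were exact (Clopper-Pearson, conditional binomial on reads, counting error only). The ratio and rule were tested on simulated reads. A gene was overlapped if another held 25% or more of its reads. Copies are other GENCODE M21 genes sharing 50 or more of a member's 50-base transcript windows. How reads fitting several places were counted, and whether strand was used, are not given in the sources used here. Protein sequences were not used here. All 39 members are reported; of other lists, the 2 highest and 2 lowest passing genes. 1 of these genes is not reported here. Members and lists were chosen with earlier results of these data known. Alternatives were other pseudocounts, filters, scalings, folds and left-out members. Python 3.11.15 with scipy 1.17.1 was used.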

Additional observations from a re-analysis of the deposited data

How the results depend on the processing

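Scaling to column totals shifted the median of all measured genes to 0.168 (log2) in GFP over MHC and 0.173 in GFP over NEG, and the medians of the 39 genes to −1.45 and −1.51. With it 4 genes were higher in GFP than in MHC, Car9 and Adm added, and 25 lower, without Pfkm, Tpi1 and Pdk2. In GFP over NEG it lost Tpi1, added Eno3 as higher and turned the sign of Pdk2, which did not pass. At 1.5-fold, 4 genes were higher (26.2% of all genes) and 30 lower (26.1%) in GFP than in MHC, and 12 were higher (12.2%) and 3 lower (13%) in MHC than in NEG. At 4-fold, 1 was higher and 16 lower in GFP than in MHC, and 0 higher in GFP than in NEG. Without the 7 overlapped genes the medians were −1.73 in GFP over NEG and 0.14 in MHC over NEG. Without the 8 genes sharing 10% or more of their windows with copies, an alternative chosen after seeing the data, they were −1.51 and 0.46. Scaling to the upper quartile added Pgam1 as lower in GFP than in MHC, and Pfkfb3 and Adm as higher in MHC than in NEG (6 genes). Pseudocounts of 0.1 and 10 and leaving out the filter on low values changed none of these counts. Of 468 single-gene values under other pseudocounts and scalings, 378 stayed within the counting interval, 90 moved and 0 reversed a passing difference. No paired analysis was possible because each population has 1 library and the labels give no replicate numbers.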

Other observations

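Copies were read as sums over the copies in the table. Copies can hold near-equal reads: Pgk1-rs7 and Gm5537 had 39047 and 38656 in NEG, beside 30854 for Pgk1. If the same reads were counted at several places, the sums hold reads more than once and a copy repeats its gene's ratio. The ratios below are thus no separate check of the genes. The 2 copies of Eno1 in the table were together 4.69-fold lower in GFP than in NEG, as was Eno1 (4.69-fold). The 2 copies of Pgam1 were 3.18-fold lower (Pgam1 itself 3.20-fold), and the copy of Bnip3 was 9.53-fold lower (Bnip3 itself 9.67-fold). For Gapdh, 103 copies in the table held 30564 reads in NEG, 25930 in MHC and 9711 in GFP, and were 3.89-fold lower in GFP than in NEG (Gapdh itself 4.04-fold). The copy of Ldhb was 2.51-fold higher in GFP than in NEG (Ldhb itself 2.59-fold). Single genes counted as copies had other orders in places. Peli2, a protein-coding gene that shares only 84 windows with Gapdh, is among the 103 but is not a near-identical copy. It was at 315 in NEG, 414 in MHC and 32.0 in GFP. The copy of Bnip3l was at 3482, 2899 and 3476, beside 6107, 4574 and 6309 for Bnip3l.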
